A study of Mus musculus with 4 samples.

Results

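The genes described here encode the nuclear part of the respiratory chain and ATP synthase, together with the complex I assembly factors that carry the same symbol prefix. They were the loci of the expression table whose single symbol starts with Nduf followed by a, b, c, s or v, with Uqcr, with Cox4 to Cox8 or with Atp5, or is Sdha, Sdhb, Sdhc or Sdhd. This gave 87 members of 47935 loci. They comprised 34 subunits of complex I, 4 of complex II, 8 of complex III, 10 of complex IV and 13 of complex V (69 subunits in all), 8 tissue-specific paralogs, 7 Ndufaf assembly factors, the supercomplex factor Cox7a2l, and 2 genes that share the Atp5 prefix without encoding a subunit. Ndufa4 was counted with complex IV, where its product is placed today. Loci with several symbols, among them those of Ndufb2, Ndufb8, Atp5g2 and Atp5o, and pseudogene symbols were left out, and Cox4i1 is not analysed here.

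Mouse erythroleukemia (MEL) cells are an established line of transformed red cell precursors, and dimethyl sulfoxide (DMSO) sets off erythroid-like differentiation in them. The study sequenced ribosomal RNA-depleted RNA of 2 uninduced samples and of 2 samples grown with 1.5% DMSO, and compared the induced with the uninduced state. All samples share this cell line and medium, and the labels give neither a genetic change nor how long DMSO was present. They also do not tell if the replicates came from different cultures, so the tests weigh differences against a spread between samples that may be technical. Levels are FPKM (fragment counts divided by transcript length and library total), so levels of different genes are per length. Throughout, pairs of FPKM values are given for replicates 1 and 2 in that order, and changes are differences of log2(FPKM + 1), DMSO-induced minus uninduced, ± SE from limma. This scale understates the change of genes with low levels.

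The respiratory chain sits in the inner mitochondrial membrane. Complexes I and II pass electrons to ubiquinone, complex III passes them on to cytochrome c and complex IV to oxygen, and complex V uses the resulting proton gradient to make ATP. Each complex except complex II combines nuclear-encoded subunits with subunits encoded by mitochondrial DNA. In the red cell lineage the chain works while heme is assembled in the same organelle, and mitochondria are removed at the end of maturation.

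The promoters of 5 members are shown because these are Cox6b2, the paralog with the largest rise, and, for complexes I, III and V, the subunits with the largest rise or fall past the threshold. Each run covers 120 bases before to 30 bases after the RefSeq start site on GRCm38.p6, 5′ to 3′ on the strand of the gene. Capitals mark matches to the searched motifs. The Cox6b2 window is chr7:4753065-4753214 on the minus strand, Ndufa1 is chrX:37191209-37191358 minus, Atp5g1 is chr11:96075602-96075751 minus, Uqcrc1 is chr9:108936528-108936677 plus and Ndufs8 is chr19:3912745-3912894 minus.
Cox6b2: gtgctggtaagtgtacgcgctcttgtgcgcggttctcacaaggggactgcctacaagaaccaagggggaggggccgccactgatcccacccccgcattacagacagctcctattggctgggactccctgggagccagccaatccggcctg
Ndufa1: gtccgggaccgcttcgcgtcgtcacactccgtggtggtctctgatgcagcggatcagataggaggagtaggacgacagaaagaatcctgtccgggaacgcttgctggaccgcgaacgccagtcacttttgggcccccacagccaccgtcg
Atp5g1: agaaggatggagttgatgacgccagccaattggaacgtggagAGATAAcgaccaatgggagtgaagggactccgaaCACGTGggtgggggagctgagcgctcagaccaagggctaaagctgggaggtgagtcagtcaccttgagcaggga
Uqcrc1: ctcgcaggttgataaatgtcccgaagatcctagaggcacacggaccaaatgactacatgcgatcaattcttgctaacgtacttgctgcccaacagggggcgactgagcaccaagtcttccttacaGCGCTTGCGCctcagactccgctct
Ndufs8: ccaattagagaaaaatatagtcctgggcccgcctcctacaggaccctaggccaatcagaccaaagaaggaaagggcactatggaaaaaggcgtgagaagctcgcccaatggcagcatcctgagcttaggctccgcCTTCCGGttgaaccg

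In these windows Atp5g1 held the GATA motif AGATAA at position -78 and the E-box CACGTG at position -44, counted from the start site. Uqcrc1 held a match to the NRF-1 palindrome, GCGCTTGCGC, at position 6, and another at position 31, just beyond the bases shown. The NRF-1 pattern was searched as the fixed letters GCGCA, any base and the fixed letters GCGC. Ndufs8 held the ETS motif CCGGAAG on the reverse strand at position 16. No searched motif was found in the windows of Cox6b2 and Ndufa1. NRF-1 and the ETS factor GABP are known regulators of nuclear respiratory genes. Promoters from 250 bases before to 50 bases after the start were in the RefSeq table for 69 of the 87 members, and both strands were searched. A gene counted once if any of its promoters matched. The NRF-1 motif occurred in 24.6% of these 69 members. The shares were 13.3% of the other 6934 protein-coding genes tested and 5.19% of all 27025 genes with such promoters. The ETS motif occurred in 24.6%, 22.6% and 9.93%, respectively. For the YY1 motif AAGATGGCG the shares were 10.1%, 4.18% and 1.64%, for AGATAA 8.70%, 7.72% and 12.7%, and for CACGTG 7.25%, 12.3% and 8.09%; these 3 motifs were added after values had been seen. A match is a description of the letters and not a bound site.

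The members made up 2.10% and 1.78% of all FPKM before and 1.77% and 2.03% after induction, so their summed share overlapped between the groups. FPKM over the whole table summed to between 1055861 and 1325806 per sample, between 12151 and 12645 loci reached 1 FPKM, and sequencing depth was not given. The 8 erythroid markers summed to 1427 and 1704 FPKM in uninduced and 58924 and 112347 FPKM in DMSO-induced samples, and 6 of the 8 were higher past the threshold, Slc4a1 among them having entered the test only through its induced values. Among 5 macrophage markers only Cd68 was tested, and it was lower; the list summed to 7.66 and 5.30, then 2.18 and 1.17 FPKM. The measured T cell, B cell, fibroblast, striated muscle and germ cell markers stayed at or under 0.60 FPKM. In bulk samples, fewer cells of a type and less RNA per cell cannot be told apart.

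Most respiratory chain transcripts did not pass the test on induction, and the few members that did moved in both directions. Of 87 members, 83 had at least 1 FPKM in at least 2 samples and were tested, within a limma fit over 12890 loci with Benjamini-Hochberg adjustment at 0.05. Past that threshold were 10 of the 83 members, or 12.0%, whereas 26.2% of all tested loci passed. Higher after induction were 4 members (Cox6b2, Ndufa1, Ndufa3 and Atp5s), against a background of 11.5% of loci called higher. Lower were 6 (Cox6a2, Ndufaf6, Atp5g1, Ndufaf5, Uqcrc1 and Ndufs8), against a background of 14.7% called lower. Among these 10 members, Cox6a2 entered the test only through its uninduced values and so had to differ. Cox6b2 would not have entered without its induced values. The split was 9 higher and 5 lower under quantile normalization, and 5 higher and 4 lower when FPKM were rescaled to sums without globin and the most abundant loci. The other 73 did not pass. Both induced values lay on one side of both uninduced values for 66 members, 32 higher and 34 lower; over all tested loci this held for 70.8%, with 36.1% higher and 34.7% lower. The median change was -0.04 over the members and 0.03 over all loci. Among the 69 subunits 2 were higher and 3 lower, with a median of -0.07. Quantile normalization gave the members a median of 0.14 and all loci one of 0.08, so the sign of medians near 0 depends on the scaling.

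Leaving out 1 sample leaves a lone sample in its group, assumed to vary like the other group, and the calls over all loci then dropped from 3377 to between 14 and 486. Without uninduced replicate 1, uninduced replicate 2 or DMSO-induced replicate 2, 0 of the 10 members passed, and without DMSO-induced replicate 1 only Cox6b2 and Ndufaf6 did; the limma adjusted p of the 10 then ran from 0.0495 to 0.214, while every estimate kept its sign. Under quantile normalization Ndufs8 missed the threshold (adjusted p = 0.0804), as did Ndufs8 (0.0535) and Ndufaf5 (0.0677) with the rescaled sums.

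**Figure D1:**
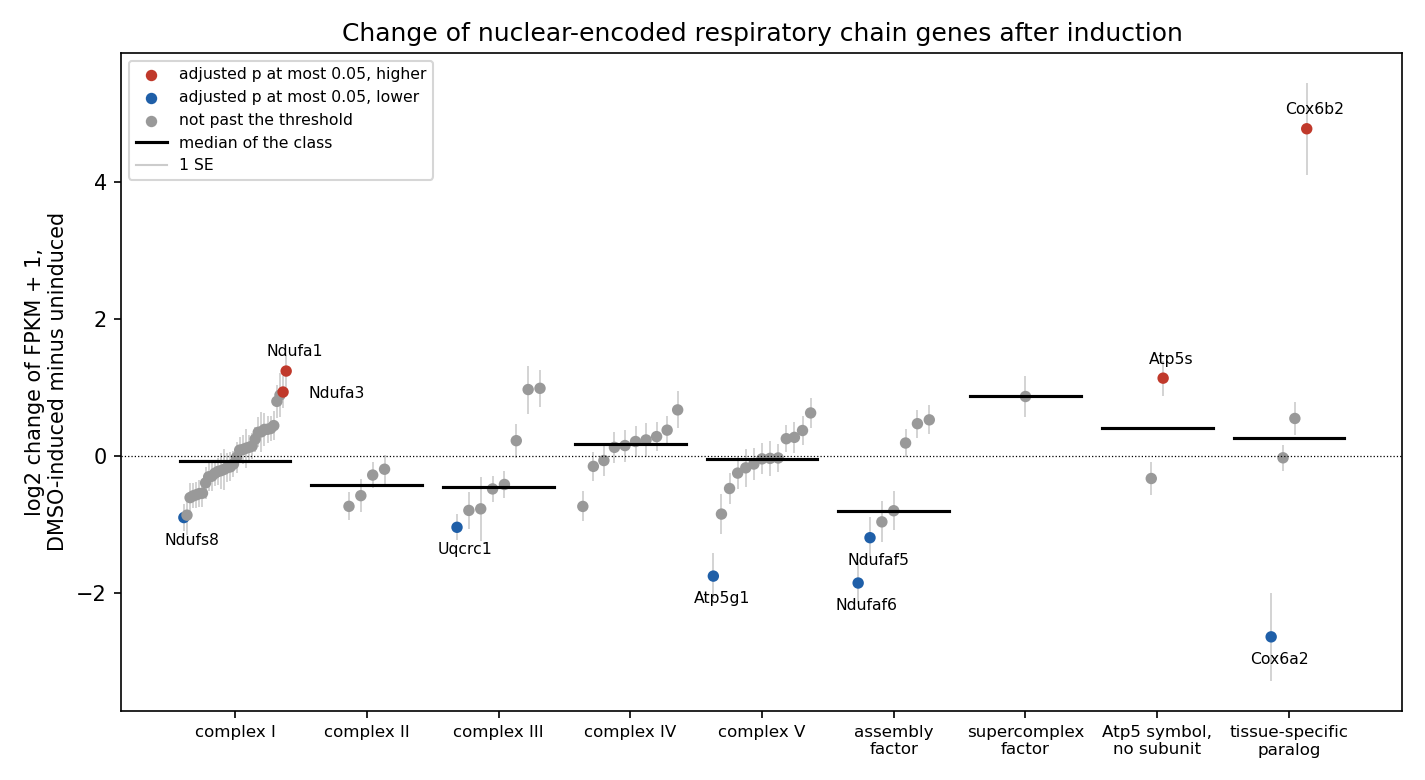
Change in log2(FPKM + 1) after induction for the 83 tested members, 1 point per gene with 1 SE, ordered within each class, and a bar at the class median. The complex II, III and IV medians lie at -0.43, -0.45 and 0.18 (-0.17, -0.20 and 0.34 under quantile normalization), and Cox6b2 (4.78) and Cox6a2 (-2.64) lie farthest from 0.

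Complex I, the NADH dehydrogenase, had 34 members, of which Ndufa1 and Ndufa3 rose, Ndufs8 fell and 31 did not pass; the median change was -0.07, and 0.19 under quantile normalization. Ndufa1 (chromosome X, 37187588 to 37191163), a small membrane-anchored accessory subunit needed for assembly of the complex, went from 129 and 147 FPKM in uninduced to 287 and 372 FPKM in DMSO-induced samples. The induced values were well apart from the uninduced ones, with a change of 1.24 ± 0.23 (limma adjusted p = 0.0230). Ndufa3 (chromosome 7, 3617373 to 3620327), another small accessory subunit of the membrane arm, stood at 210.1 and 199 and then at 341 and 451 FPKM. It rose by 0.94 ± 0.23 (adjusted p = 0.0429). Ndufa3 overlaps the gene Tfpt on the other strand, and since it was not given whether counting used strand, reads of the overlap cannot be told apart.

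The catalytic core of complex I, which holds the flavin and iron-sulfur clusters that carry the electrons, includes the products of Ndufv1, Ndufv2 and Ndufs8. Its median change was -0.29, with 0 higher and 1 lower, whereas the 27 accessory subunits had a median of 0.09, with 2 higher and 0 lower. Under quantile normalization these medians were 0.001 and 0.35, and the difference between core and accessory subunits was not tested. Ndufs8 (chromosome 19, 3908863 to 3912774), which holds 2 iron-sulfur clusters near the ubiquinone site, went from 149 and 167 FPKM to 91.0 and 77.9 FPKM. It fell by 0.90 on the log2 scale (SE 0.20, adjusted p = 0.0336). The flavin subunit Ndufv1 stood at 135 and 164, then 104 and 91.0 FPKM (-0.61, adjusted p = 0.0901). Its partner Ndufv2 leaned the other way, from 88.5 and 81.6 to 111 and 115 FPKM (0.40, adjusted p = 0.157). Neither passed, although the groups did not overlap for either. Ndufs3 (-0.30), Ndufs7 (-0.29) and Ndufs1 (-0.21) also did not pass, and the values of Ndufs1 overlapped between groups; under quantile normalization Ndufs1 was at 0.04. Ndufb9 was the most abundant complex I member, with 331 and 377, then 427 and 473 FPKM (0.35, adjusted p = 0.275). Among accessory subunits short of the threshold, Ndufv3 (0.80, adjusted p = 0.0623) and Ndufa6 (0.89, 0.0948) had the highest estimates and Ndufab1, the mitochondrial acyl carrier protein, the lowest (-0.86, 0.0795).

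Complex II, succinate dehydrogenase, also belongs to the citric acid cycle and supplies electrons from succinate. All 4 of its genes had both induced values below both uninduced values, as did 34.7% of all tested loci, and 0 of 4 passed the threshold; the median change was -0.43, and under quantile normalization Sdha (0.02) and Sdhc (0.07) were on the other side of 0. Sdhb, the iron-sulfur subunit, came closest, with 149.8 and 164 against 103 and 85.3 FPKM (-0.73 ± 0.20, adjusted p = 0.0544). The membrane anchor Sdhd, the most abundant of the 4, stood at 328 and 236, then 191 and 181 FPKM (-0.58, adjusted p = 0.134). For the flavoprotein Sdha the values were 137 and 119.7, then 100.03 and 111 FPKM (-0.28, adjusted p = 0.329). The anchor Sdhc differed least, from 92.8 and 93.9 to 92.2 and 72.2 FPKM (-0.19, adjusted p = 0.516).

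Complex III, the cytochrome bc1 complex, had 1 of 8 members past the threshold and a median change of -0.45. Uqcrc1 (chromosome 9, 108936633 to 108949623), a core subunit of the matrix side, went from 332 and 343 FPKM to 165 and 162 FPKM. Replicates lay close together in each group, and it fell by 1.04 on the log2 scale (SE 0.19, adjusted p = 0.0228). Its partner core subunit Uqcrc2 stood at 234 and 240.04, then 169 and 171 FPKM (-0.48, adjusted p = 0.118). The Rieske iron-sulfur protein Uqcrfs1 stood at 265 and 260.1, then 200.1 and 194 FPKM (-0.41, adjusted p = 0.162). Neither passed, although neither overlapped between groups. Uqcr10 came nearest to the threshold on the lower side without passing, from 869 and 708 to 519 and 394 FPKM (-0.79 ± 0.27, adjusted p = 0.0831). Uqcr11, a small subunit and the most abundant of this complex, overlapped, with 588 and 728, then 718 and 816 FPKM (0.23). The hinge protein Uqcrh, which assists the docking of cytochrome c1 with cytochrome c, was nearest to the threshold on the higher side, from 402 and 321 to 613 and 832 FPKM (0.99 ± 0.27, adjusted p = 0.0527). The uninduced replicates differed widely for a pair of small subunits: uninduced Uqcrq read 107 and 282 FPKM and uninduced Uqcrb 176 and 91.6 FPKM.

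Complex IV, cytochrome c oxidase, had 0 of 10 members past the threshold, and its median change was 0.18. By level it was among the most abundant classes, with a median of 548 and 571 FPKM in uninduced and 609.7 and 534 FPKM in DMSO-induced samples, whereas complex I had 142 and 165, then 123 and 124 FPKM. Cox8a, its most abundant subunit, read 822 and 885, then 949.7 and 949 FPKM (0.15, adjusted p = 0.642). Cox6c, at 576 and 784, then 1026 and 1125 FPKM, had the highest estimate (0.68, adjusted p = 0.122). Cox5a, a heme-free subunit on the matrix side, had the lowest, from 521 and 459 to 315 and 273 FPKM (-0.74, adjusted p = 0.0641). Ndufa4 overlapped between groups, at 391 and 396, then 544 and 396 FPKM (0.24). In this complex 6 of the 10 had both induced values above both uninduced ones (36.1% over all tested loci), and 2 had them below (34.7%).

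Complex V, the ATP synthase, had 1 of 13 members past the threshold and a median change of -0.04 (0.20 under quantile normalization), although its summed level went from 7634 and 8034 FPKM to 6515 and 6011 FPKM. Abundant genes weigh most in that sum. The 5 subunits of the catalytic head, Atp5b among them, summed to 4320 and 4877, then 3480 and 3282 FPKM. The 2 subunit c genes summed to 1320 and 979, then 710 and 570 FPKM. For the other 6 subunits the sums were 1994 and 2178, then 2325 and 2159 FPKM. The most abundant member of all, the catalytic beta subunit Atp5b, stood at 2297 and 2814, then 1571 and 1271 FPKM (-0.85 ± 0.30, adjusted p = 0.0918). The alpha subunit Atp5a1 stood at 899 and 944, then 649.9 and 677 FPKM (-0.47, adjusted p = 0.174). Both keep the groups apart and neither passed. The small epsilon subunit Atp5e of the same head leaned the other way, from 379.9 and 397 to 647 and 561 FPKM (0.63, adjusted p = 0.0907).

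The member of complex V that changed was Atp5g1 (chromosome 11, 96068852 to 96075670), one of the genes for subunit c, whose copies form the rotating ring of the membrane part. It went from 722 and 476 FPKM in uninduced to 217 and 138 FPKM in DMSO-induced samples. It fell by 1.75 on the log2 scale (SE 0.34, adjusted p = 0.0252), the largest fall among the 69 subunits. The parallel gene Atp5g3, which encodes the same mature protein behind another import sequence, stood at 598 and 503, then 494 and 432 FPKM (-0.25, adjusted p = 0.451). Atp5g1 accordingly made up 54.7% and 48.6% of the summed FPKM of both genes in uninduced and 30.5% and 24.2% in DMSO-induced samples. The locus that Atp5g2, the remaining gene for subunit c, shares with Mir688 read 623 and 705, then 700.4 and 762 FPKM. With that locus included, the share of Atp5g1 was 37.1% and 28.2%, then 15.3% and 10.4%. How the quantifier divided fragments between genes of similar sequence was not given, which touches this family and the members that have processed pseudogenes.

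**Figure D2:**
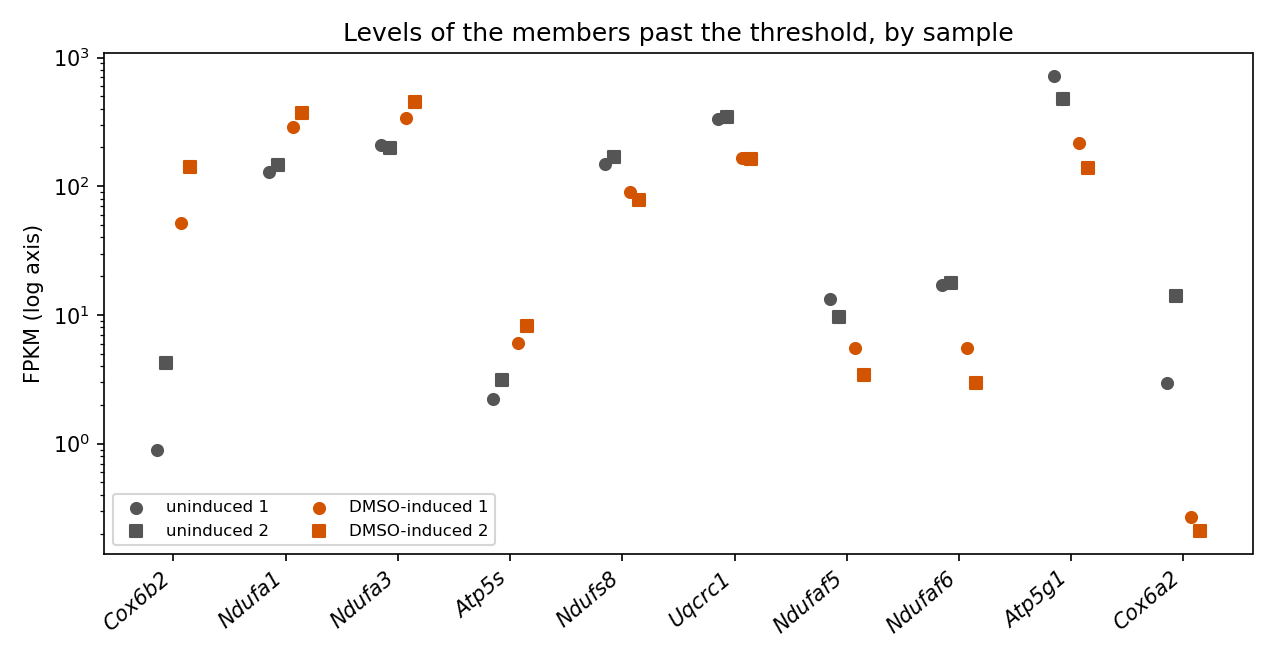
FPKM on a log axis of the 10 members past the threshold, with 1 point per sample (circles for replicate 1, squares for replicate 2). Cox6b2 spans 0.89 to 142 FPKM and Cox6a2 0.21 to 14.2 FPKM, while the 2 samples of each group lie close together for Uqcrc1, Ndufs8 and Ndufa1.

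Of the 8 tissue-specific paralogs 4 were at or near 0 and not tested, 1 rose and 1 was lower. Cox6b2 (chromosome 7, 4751792 to 4753094) encodes the testis form of subunit VIb of complex IV. It stood at 0.89 and 4.26 FPKM in uninduced and at 52.0 and 142 FPKM in DMSO-induced samples. It rose by 4.78 ± 0.67 (limma adjusted p = 0.0154), the largest change of any member, with a wide spread between the replicates of each group. Uninduced replicate 1 was below 1 FPKM, so the uninduced values alone would not have let Cox6b2 into the test. The general form Cox6b1 stood at 798 and 828, then 909.7 and 976 FPKM (0.21, adjusted p = 0.515). Cox6b2 therefore made up 0.111% and 0.512% of the FPKM of the pair before and 5.40% and 12.7% after induction. DMSO-induced replicate 2, in which Cox6b2 was higher than in replicate 1, was also the one with the higher erythroid marker sum, and the part of that in the result was not tested. Germ cell markers were at most 0.09 FPKM in any sample, and 2 of the 4 were at 0 in all samples.

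Of the genes within 30 kb of Cox6b2, Suv420h2, which encodes a histone H4 lysine methyltransferase (chromosome 7, 4740115 to 4747514, plus strand), was the only one that also rose. It lies tail to tail with Cox6b2 at a distance of 4277 bp and went from 16.3 and 18.0 FPKM to 113 and 186 FPKM (3.01 ± 0.29, adjusted p = 0.0106). Fam71e2, which ends 131 bp upstream of the Cox6b2 start, was at 0 in all 4 samples, and Il11 and Tmem190 did not exceed 0.33 FPKM. Tmem150b read 1.11 and 1.01, then 0.25 and 0 FPKM; it entered the test only through its uninduced values, so its call is not read here. These neighbours were looked up after the change of Cox6b2 had been seen.

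Cox6a2 (chromosome 7, 128205435 to 128206387), the heart and skeletal muscle form of subunit VIa, went from 2.95 and 14.2 FPKM to 0.27 and 0.21 FPKM. It was lower by limma, with a change of -2.64 ± 0.64 (adjusted p = 0.0404), but it entered the test only through its uninduced values and so had to differ; with a filter at 5 FPKM it was not tested. It lies inside Itgad on the other strand, and Itgad was at 0 in all samples. The liver-type form Cox6a1 stood at 576 and 659, then 676 and 670.2 FPKM (0.13), so Cox6a2 was at most 2.10% of the pair. The muscle form Cox7a1 read 11.1 and 11.9, then 11.5 and 11.03 FPKM, a difference of -0.02 ± 0.19, with the groups overlapping. Its counterpart Cox7a2 stood at 228 and 243, then 311 and 265 FPKM (0.29, adjusted p = 0.341). Ndufa4l2, a paralog of Ndufa4 known for its induction by low oxygen, stayed between 0.51 and 1.71 FPKM (0.55, adjusted p = 0.151). Cox4i2 and Cox8c reached at most 0.14 and 0.25 FPKM, and Cox7b2 and Cox8b were listed at 0 in every sample. Striated muscle markers were at most 0.03 FPKM.

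**Figure D3:**
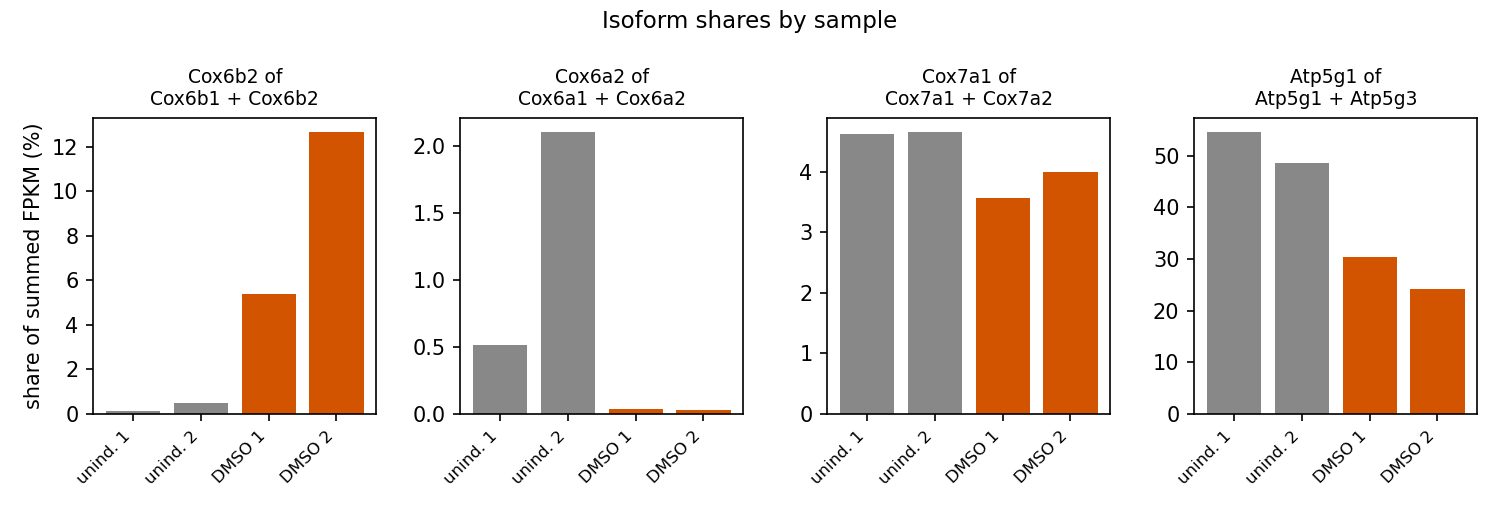
Share of a paralog in the summed FPKM of its pair, in percent, with 1 bar per sample and a separate vertical scale in each panel. Cox6b2 goes from at most 0.512% to 5.40% and 12.7%, Cox6a2 from 0.510% and 2.10% to at most 0.0399%, and Atp5g1 from 54.7% and 48.6% to 30.5% and 24.2%.

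The Ndufaf assembly factors, which help to build complex I without staying in it, had the lowest median change of the classes with 3 or more members, -0.80, with 0 higher and 2 lower of 7. The median was -0.45 without DMSO-induced replicate 1 and -0.51 under quantile normalization. Ndufaf6 (chromosome 4, 11051045 to 11076205), needed for an early step with the mitochondrially encoded subunit ND1, went from 17.1 and 17.8 FPKM to 5.56 and 2.95 FPKM. It fell by 1.85 on the log2 scale (SE 0.30, adjusted p = 0.0189). Ndufaf5 (chromosome 2, 140170649 to 140203689), which hydroxylates the core subunit NDUFS7, went from 13.3 and 9.57 to 5.55 and 3.41 FPKM (-1.19 ± 0.30, adjusted p = 0.0432). Both are expressed far below the subunits they serve. Ndufaf4 (-0.96, adjusted p = 0.0697) and the most abundant factor, Ndufaf2 (-0.80, 0.0943), lay on the same side without passing; Ndufaf2 read 146 and 146, then 65.3 and 106 FPKM. Ndufaf1, Ndufaf3 and Ndufaf7 had estimates of 0.47, 0.53 and 0.19, also short of the threshold. Groups did not overlap for any of the 7, against 70.8% of all tested loci without overlap.

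Outside the complexes, the supercomplex factor Cox7a2l, which joins complex III to complex IV, stood at 179.8 and 239, then 308 and 471 FPKM (0.88 ± 0.30, adjusted p = 0.0883). Atp5s (chromosome 12, 69724950 to 69744660), known as factor B and associated with the synthase, rose from 2.23 and 3.12 to 6.06 and 8.15 FPKM (1.14 ± 0.26, adjusted p = 0.0339). Atp5sl, annotated today as the complex I assembly gene Dmac2, stood at 9.78 and 8.26, then 5.94 and 8.14 FPKM (-0.33, adjusted p = 0.346). Of the 10 members past the threshold, Ndufa3 and Cox6a2 overlap another annotated gene.

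The subunits with the shortest coding sequences tended to be the ones with higher induced values. Across the 69 subunits the change had a Spearman correlation of -0.48 with coding length (Pearson -0.41 with log2 length), a pattern chosen after the values were seen and given as a description across genes that share the same 4 libraries. Of the 18 subunits with up to 300 bp of coding sequence, 15 had estimates above 0, with a median of 0.28, including Ndufa1, Ndufa3, Uqcrh, Atp5e and Cox6c. Of the 19 with more than 600 bp, 3 did, with a median of -0.41; these include Uqcrc1, Ndufs8, Atp5b, Sdha and Sdhb. The 21 subunits of 300 to 450 bp and the 11 of 450 to 600 bp had medians of -0.15 and -0.04. Within complexes the rank correlation was -0.43 for complex I, -0.24 for complex III, -0.47 for complex IV and -0.58 for complex V. Leaving out 1 sample at a time gave -0.42 to -0.53, and the 3 other scalings -0.46 to -0.48. Quantile normalization put the medians of the shortest and longest classes at 0.53 and -0.18. The difference between the uninduced replicates correlated with length at -0.11 and that between the induced replicates at 0.02.

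Other loci had a weaker correlation with length, although their shortest class also had the highest median. Among 1582 other protein-coding loci with a mean of at least 40 FPKM and coding lengths up to 2181 bp, the same correlation was -0.05, and over all 9148 protein-coding loci with 1 symbol it was 0.12. The mix of lengths differed: 1039 of the 1582 loci and 19 of the 69 subunits had more than 600 bp. Their correlations are therefore not directly comparable. In the same 1582 loci, the 93 with up to 300 bp had a median change of 0.20, with 64.5% above 0, and the 1039 with more than 600 bp a median of -0.24, with 38.4% above 0. As among the subunits, the classes between did not form an order. The medians of other loci were -0.27 for the 243 loci of 300 to 450 bp and -0.09 for the 207 of 450 to 600 bp. In these 1582 loci the difference between the uninduced replicates correlated with length at -0.15, and that between the induced replicates at -0.002. The former was larger in size than the -0.05 between groups. The part of coding length in the changes of single members was not tested.

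**Figure D4:**
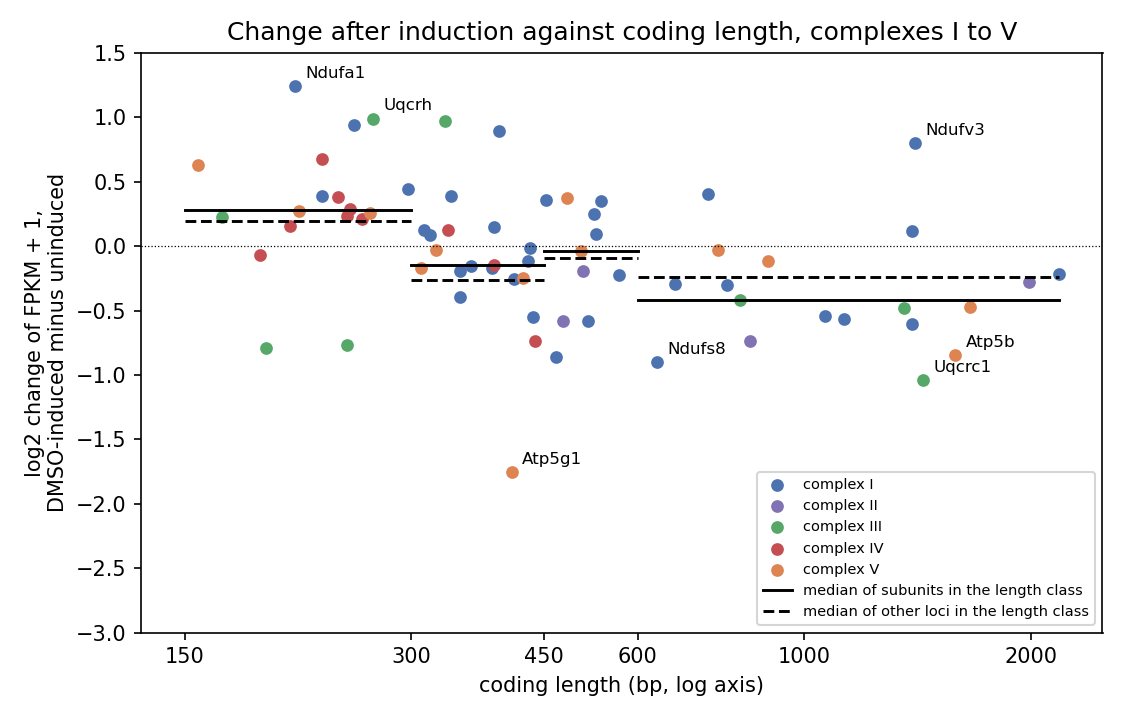
Change in log2(FPKM + 1) against coding length in bp (log axis) for the 69 subunits, 1 point per gene coloured by complex. Solid lines are medians of subunits and dashed lines medians of the 1582 other loci in 4 length classes. From the shortest to the longest class the subunit medians are 0.28, -0.15, -0.04 and -0.41.

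Of the electron carriers and side entries to the chain, 5 of 7 listed genes had a row of their own, and 0 were higher and 2 lower, with a median change of -0.96. Cyc1, the cytochrome c1 of complex III that the symbol rule does not take, went from 283 and 288 to 152 and 123 FPKM (-1.06 ± 0.21, adjusted p = 0.0266). Dhodh, which feeds electrons from pyrimidine synthesis into ubiquinone, went from 24.9 and 28.7 to 7.43 and 6.81 FPKM (-1.77 ± 0.20, adjusted p = 0.0128). Cytochrome c itself (Cycs) stood at 65.8 and 42.7, then 31.6 and 22.7 FPKM and did not pass (-0.96, adjusted p = 0.0702).

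Ubiquinone synthesis genes had 0 higher and 3 lower of 12 tested, with a median of -0.30. Coq7, the hydroxylase of a late step, changed most, from 36.0 and 29.7 to 12.3 and 6.52 FPKM (-1.76 ± 0.33, adjusted p = 0.0231). Coq4 and Coq6 were also lower (-1.47 and -0.75), whereas the most abundant, the lipid-binding Coq9, overlapped between groups at 39.1 and 49.8, then 39.0 and 47.9 FPKM. Assembly factors outside the Ndufaf names had 1 higher and 6 lower of 34 tested, with a median of -0.39. Cox10, which makes heme O on the way to the heme A of complex IV, went from 13.2 and 12.9 to 3.52 and 3.17 FPKM (-1.69 ± 0.20, adjusted p = 0.0128). Cox20, a chaperone of the mitochondrially encoded subunit COX2, was the one that rose, from 7.95 and 5.29 to 15.8 and 14.0 FPKM (1.08 ± 0.25, adjusted p = 0.0379). The other 5 that fell were Ecsit, Foxred1, Bcs1l, Uqcc1 and Sco1, with changes between -1.39 and -0.79, and the most abundant, Uqcc2, did not pass (-0.71, adjusted p = 0.0774). The background for these lists is the same 11.5% higher and 14.7% lower. With rescaled sums 2 of these 7 assembly factors passed (Ecsit and Cox10), while Cox20 (adjusted p = 0.0513), Foxred1 (0.0648), Sco1 (0.0729), Bcs1l (0.0764) and Uqcc1 (0.0856) did not, nor did Coq6 (0.0806). Foxred1 (0.0635) and Uqcc1 (0.0642) also missed the threshold under quantile normalization. With any 1 of the 4 samples left out, 0 of the assembly factors and ubiquinone synthesis genes passed, except Coq7 without DMSO-induced replicate 1.

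Inner membrane carriers, outer membrane pores and the ATP synthase inhibitor had 0 higher and 2 lower of 7 tested, with a median of -0.63. Slc25a5, an ADP/ATP carrier and the most abundant of them, went from 1091 and 1013 to 482 and 321 FPKM (-1.42 ± 0.29, adjusted p = 0.0274). The pore Vdac2 went from 171 and 159 to 79.97 and 82.9 FPKM (-1.01 ± 0.18, adjusted p = 0.0223). Atpif1, the inhibitor of ATP hydrolysis by the synthase, stood on the higher side without passing, at 319 and 418, then 561 and 737 FPKM (0.81 ± 0.27, adjusted p = 0.0829). Slc25a5 and Vdac2, like Cyc1 and Dhodh, passed under the 3 other scalings but in none of the fits with 1 sample left out. The 13 mitochondrially encoded subunits had 0 rows of their own. Their transcripts fell into 4 shared loci, none of which passed: that of mt-Co1, with 16 symbols, read 2378 and 1173, then 2483 and 2428 FPKM (0.56 ± 0.42, adjusted p = 0.354), and that of mt-Nd6 264.5 and 143, then 93.1 and 119.5 FPKM (-0.88, adjusted p = 0.120). Uninduced replicate 2 lay below uninduced replicate 1 in all 4 of these loci.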

How the data were processed

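Expression was analysed in 2 uninduced and 2 DMSO-induced samples, grouped by their labels. The authors deposited 1 table of FPKM values per locus and sample; the unit was inferred from values that are not whole and from columns that, per the file headers, are those of a Cufflinks-type tracking table. TopHat2 and GRCm38 are named per the submitters' processing notes. Neither the quantifier nor versions, strandedness or depth is given in the sources used here. FPKM is relative to each library, so very abundant transcripts lower the others. An exact 0 may be a failed estimate.

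Loci reaching 1 FPKM in 2 or more samples (12890) were fitted as log2(FPKM + 1) with limma 3.58.1 in R 4.3.3 (trend, group as the only term), with Benjamini-Hochberg adjustment at 0.05 over all loci; the fit was tested on simulated data. Class medians are descriptions without a test. Positions and coding lengths came from GENCODE M21 (GRCm38), promoters from RefSeq (GRCm38.p6). Named were, per class, the most abundant member, the members past the threshold, all paralogs with their counterparts, complex I core genes and complex II, and per related list the most abundant and most changed genes; members nearest to the threshold were added after their values were seen. The result of 1 gene is not reported here. Members and lists were chosen with earlier results of these data known. Alternatives were other scalings, filters, a replicate block, 0.1 as pseudocount, single samples left out, and Ndufa4 with complex I.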

Additional observations from a re-analysis of the deposited data

How the results depend on the processing

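Of the 10 members past the threshold, 10 remained under median-of-ratios size factors and with a pseudocount of 0.1. Under quantile normalization and with a filter at 5 FPKM 9 remained, and 8 with rescaled sums. At 5 FPKM, Cox6b2 and Atp5s entered only through their induced values, and Ndufaf5 and Ndufaf6 each had an induced value under the filter. For these genes that filter is no separate check of the call. Without a filter 0 passed in either direction, as only 30 of all loci did (3377 with the filter). Leaving out 1 sample left 0 to 2 members, 0 to 1 higher and 0 to 1 lower, and 14 to 486 of all loci. Quantile normalization gave 9 higher; it put the median change at 0.14 for all members, 0.19 for complex I, -0.17 for complex II, -0.20 for complex III, 0.20 for complex V and -0.51 for assembly factors. Median-of-ratios factors gave -0.51 for complex II and -0.52 for complex III, and rescaled sums -0.36 for complex II. With 1 sample left out, medians ranged from -0.52 to -0.27 for complex II, from -0.45 to -0.25 for complex III and from -0.80 to -0.45 for assembly factors. The cause was not tested. Named genes kept their sign under these scalings except Ndufs1, Sdha, Sdhc, Coq9 and Vdac3 (quantile) and Cox7a1, Coq9 and Vdac3 (rescaled sums), all short of the threshold. Counting Ndufa4 with complex I gave that complex a median of -0.02 and complex IV one of 0.15.

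The replicate numbers are shared by both groups, but no label says that they mark a common culture. Deviations of same-numbered samples correlated at 0.17 over all tested loci and at 0.39 over the members. With the replicate block 14 members passed, 7 higher and 7 lower; these held the same 10 plus Cox7a2l, Ndufa6, Ndufaf4 and Ndufv3. With 2 samples a group and unknown depth, changes of the size seen for most subunits may go undetected.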
